A study of Mus musculus with 6 samples.

Results

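Aminoacyl-tRNA synthetases are the enzymes that load each amino acid onto its tRNA. The genes were taken from the deposited expression table of 54532 genes by their symbols: a letter for the amino acid followed by "ars", with a final 2 for the mitochondrial enzyme, and Farsa, Farsb and Eprs. This gave 37 genes, 20 for cytosolic and 17 for mitochondrial enzymes, and no match had to be dropped as another kind of gene. The values were FPKM (reads scaled to gene length and to library size), and all 37 genes met the minimum for testing, an average of 1 FPKM in the 6 libraries. Tarsl2, which encodes a further threonyl-tRNA synthetase, lies outside the symbol rule.

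The libraries were made from total RNA of mouse embryonic fibroblasts expressing the adenoviral oncoprotein E1A and the activated Ras HRasV12. In 3 libraries (shLuc_dox) the cells carried a hairpin named for luciferase, the control here, and in 3 (shMettl3_dox) a hairpin against Mettl3, the catalytic subunit of the enzyme that writes N6-methyladenosine on mRNA. All 6 samples had received doxorubicin, a topoisomerase II poison that breaks DNA, at 0.2 ug/ml for 6 hours, so every difference given here is one within drug-treated cells. Whether replicates were grown separately is not stated in the labels, and p-values cover only the spread among the deposited samples, which can be of technical origin.

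Mettl3 itself was lower in the shMettl3_dox libraries, at 1.29 to 1.65 FPKM against 2.47 to 3.14 FPKM, with a log2 change of -0.58 (limma adjusted p = 0.00861). The libraries held 17001640 to 20132540 recovered reads in shLuc_dox and 17652952 to 25464040 in shMettl3_dox. Of 8 fibroblast markers, 2 had a mean of at least 1 FPKM. Vim read 797 to 847 FPKM in shLuc_dox and 678 to 742 in shMettl3_dox, and Pdgfrb 4.49 to 4.73 and 4.82 to 4.999 FPKM, so the groups were apart in both genes and in opposite directions. The 8 fibroblast markers summed to 803 to 853 FPKM in shLuc_dox and 685 to 749 in shMettl3_dox, while Col1a1 stayed at 0.616 to 0.963 FPKM and Thy1, Lum and Dcn at 0.113 FPKM or lower. The fibroblast label was therefore carried by few of its markers. Of the markers of other cell types, Cd68 read 15.3 to 18.01 FPKM in shLuc_dox and 9.40 to 11.05 in shMettl3_dox, Des 5.95 to 6.81 and 2.52 to 3.30, and Epcam 3.67 to 4.47 and 2.24 to 3.13, while the defining markers Ptprc, Cd3e, Krt14 and Myod1 were at 0.0533 FPKM or lower in every library. The summed level of the 4 leukocyte markers was 15.4 to 18.1 FPKM in shLuc_dox and 9.47 to 11.1 in shMettl3_dox, that of the 4 muscle markers 5.95 to 6.81 and 2.60 to 3.30, and that of the 5 epithelial markers 3.70 to 4.54 and 2.28 to 3.15. The 4 endothelial markers summed to at most 0.386 FPKM. The part of these markers in the changes below was not tested.

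In animal cells most amino acids have a pair of nuclear synthetase genes, one for the enzyme that serves cytosolic ribosomes and one for the enzyme imported into mitochondria. Gars and Kars each serve both compartments from a single gene, Eprs encodes a fused enzyme for glutamate and proline, and the cytosolic phenylalanine enzyme is built from the Farsa and Farsb subunits. Several cytosolic enzymes sit together in a multisynthetase complex held by the scaffold proteins Aimp1, Aimp2 and Eef1e1. Many cytosolic synthetase genes are known targets of Atf4, the transcription factor of the amino acid response, which binds composite elements of the form TGATGNAA.

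Promoter windows of 300 bases, 250 before and 50 after the annotated start, were available from RefSeq (GRCm38.p6) for 27 of the 37 genes. Both strands were searched for TGATGNAA, whose reverse complement is TTNCATCA, and for CACGTG, the E-box; no match of one overlapped a match of the other. TGATGNAA occurred in 5 of 13 cytosolic genes (Aars, Gars, Iars, Tars and Yars) and in 0 of 14 mitochondrial genes. It occurred in 3.97% of all 32851 windows and in 2.41% of the 8708 tested genes with a window. CACGTG occurred in Aars, Farsb, Iars and Tars among the cytosolic genes and in Ears2 among the mitochondrial ones, against 7.15% of all windows and 12.3% of the tested genes with a window. These matches are descriptions of the sequence; binding was not measured.

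The stretches that hold the TGATGNAA matches are printed 5′ to 3′ on the strand of the gene, with every match to either motif in capitals, so that the spacing to the transcription start can be compared. They are Aars at chr8:111033692-111033841 (plus strand), Tars at chr15:11399659-11399808 (minus strand), Gars at chr6:55037851-55038000 (plus strand), Iars at chr13:49682126-49682155 (plus strand) and Yars at chr4:129189895-129189924 (plus strand).
Aars: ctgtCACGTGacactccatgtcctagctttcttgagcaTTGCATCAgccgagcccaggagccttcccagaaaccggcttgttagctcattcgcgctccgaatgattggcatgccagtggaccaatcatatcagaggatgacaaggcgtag
Tars: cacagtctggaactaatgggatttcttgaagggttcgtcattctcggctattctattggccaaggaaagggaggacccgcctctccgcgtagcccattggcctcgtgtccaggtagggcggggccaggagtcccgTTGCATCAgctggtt
Gars: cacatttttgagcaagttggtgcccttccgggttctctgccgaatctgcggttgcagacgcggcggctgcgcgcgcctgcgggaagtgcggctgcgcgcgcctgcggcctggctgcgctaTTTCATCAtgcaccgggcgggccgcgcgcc
Iars: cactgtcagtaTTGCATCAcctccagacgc
Yars: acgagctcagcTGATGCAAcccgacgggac
Counted from the RefSeq start, the match began at -112 in Aars, at -30 in Gars and at -15 in Tars, and within the transcribed bases at 8 in Iars and at 4 in Yars. Aars held another match, TTTCATCA, at 10, outside the stretch printed. In GENCODE M21 the Aars gene begins upstream of its window, at chr8:111033144, so both places hold for the RefSeq start only. Of these 5 genes Aars, Iars, Tars and Yars rose in shMettl3_dox, as given below, and Gars did not pass the test. Of all 20 cytosolic genes 13 were called higher, beside 14.6% of all tested genes. Only 13 of the 20 had a window, and the others were not searched for either motif. Of the 12 synthetase genes called higher that had a window, 4 held TGATGNAA and 5 held CACGTG. Of the tested genes with a window, 2.41% held TGATGNAA and 12.3% held CACGTG. Whether match and rise go together was not tested.

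Of the 20 cytosolic synthetase genes, 13 were higher in shMettl3_dox, 0 were lower and 7 did not pass the test (limma on log2(FPKM + 1), Benjamini-Hochberg adjustment over all 12098 tested genes). Over all tested genes 14.6% were called higher and 13.5% lower. When libraries were scaled to the sum of protein-coding genes, these shares were 10.4% and 15.9%, and 10 cytosolic genes were called higher and 1, Qars, lower. The median log2 change of the cytosolic genes was 0.23, against 0.01 for all tested genes, and 19 of the 20 lay above 0. Asparaginyl-, cysteinyl- and tyrosyl-tRNA synthetase led, with ratios of mean FPKM of 1.53, 1.45 and 1.44. The 3 libraries of each group did not overlap in 15 genes that were higher and 1 that was lower, against 23.6% and 21.5% of all tested genes. Among the 4190 tested genes within the cytosolic enzymes' range of levels, 20.3% were called higher and 16.4% lower. Since these are values of whole cultures, a change in the number of cells of a kind and a change in RNA per cell cannot be told apart. The number of cytosolic genes called higher lay between 9 and 12 when a library was left out.

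**Figure D1:**
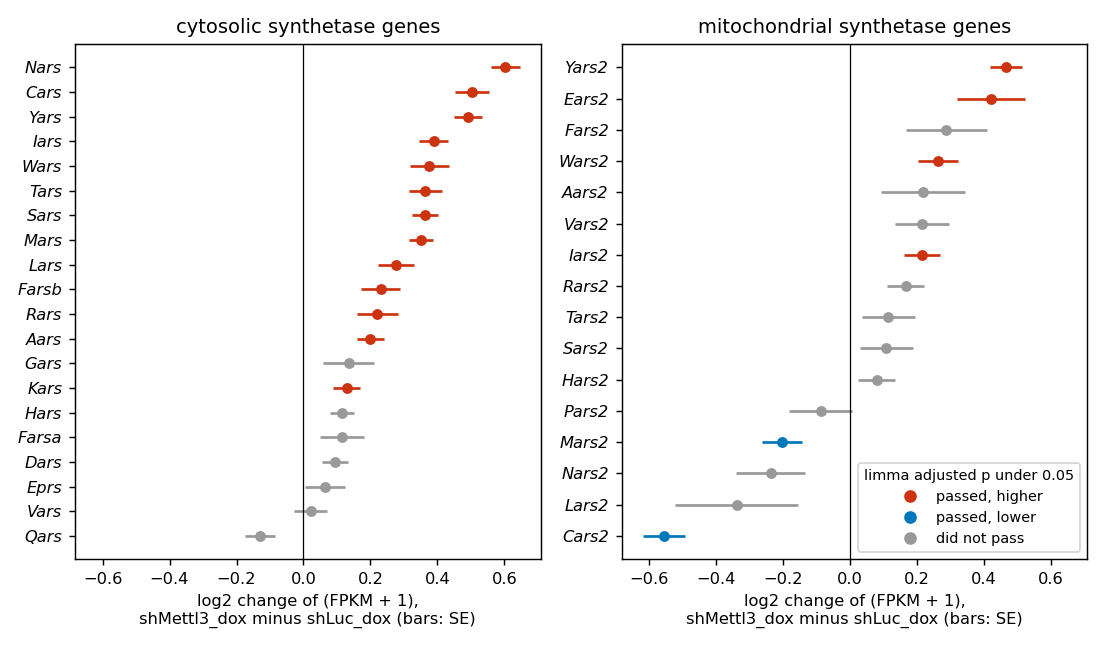
Change of 36 synthetase genes between shMettl3_dox and shLuc_dox, as the difference in mean log2(FPKM + 1) with its standard error (bars), cytosolic genes on the left and mitochondrial genes on the right, coloured by whether the limma adjusted p passed 0.05. Cytosolic genes run from -0.13 to 0.60 with 13 passing as higher, and mitochondrial genes from -0.56 to 0.46 with 4 passing as higher and 2 as lower.

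Nars (ENSMUSG00000024587), which loads asparagine, read 61.1, 59.7 and 64.0 FPKM in the shLuc_dox libraries and 96.1, 91.4 and 94.6 in the shMettl3_dox libraries. Every knockdown library lay far above every control library. The mean rose from 61.6 ± 2.20 to 94.0 ± 2.40 FPKM (SD, n = 3 each), and its log2 change of 0.60 (limma adjusted p = 0.000268, SE 0.0428) was the 165th largest of the tested genes. Cars (ENSMUSG00000010755, mm10 chromosome 7, 143557230 to 143600090, minus strand), the cysteine enzyme and the lowest of the cytosolic genes, read 11.5, 12.6 and 12.7 against 17.96, 18.1 and 17.4 FPKM. Its log2 change was 0.50 (SE 0.0504, limma adjusted p = 0.000955), and the groups were again apart. Yars (ENSMUSG00000028811, chromosome 4, 129189760 to 129219607, plus strand), the tyrosine enzyme, read 14.1, 14.6 and 13.9 against 20.5, 20.8 and 19.8 FPKM. The log2 change of Yars was 0.49 (SE 0.0417, limma adjusted p = 0.000500), and no library of one group reached the other.

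A further group of enzyme genes rose by 1.28- to 1.32-fold in mean FPKM. Iars (ENSMUSG00000037851, chromosome 13, 49682100 to 49734267, plus strand), the isoleucine enzyme of the multisynthetase complex, read 42.5, 40.5 and 42.5 against 55.3, 52.9 and 57.1 FPKM, a log2 change of 0.39 (limma adjusted p = 0.00146, SE 0.0442). Wars, the tryptophan enzyme and a known interferon-induced gene, read 24.3, 23.7 and 22.7 against 33.1, 30.9 and 28.7 FPKM, with the widest spread of the group in shMettl3_dox; its log2 change was 0.38 (limma adjusted p = 0.00466). Both genes kept the groups apart. Tars (ENSMUSG00000022241, chromosome 15, 11382301 to 11399665, minus strand), the threonine enzyme, read 15.2, 15.1 and 16.5 against 20.2, 19.9 and 21.1 FPKM (log2 change 0.36, limma adjusted p = 0.00280). Tarsl2, the second threonine gene, read 7.47 to 7.82 against 7.79 to 7.92 FPKM, a log2 change of 0.04 (limma adjusted p = 0.504). The groups thus stood apart for Tars and overlapped for Tarsl2. Sars, the serine enzyme, read 36.7, 36.2 and 38.5 against 47.8, 47.6 and 48.5 FPKM (log2 change 0.36, limma adjusted p = 0.00122). Mars, the methionine enzyme, read 36.7, 36.8 and 37.6 against 47.5, 48.2 and 46.9 FPKM (log2 change 0.35, limma adjusted p = 0.000979). Sars and Mars had nearly the same level and the same change, with little spread in either group.

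**Figure D2:**
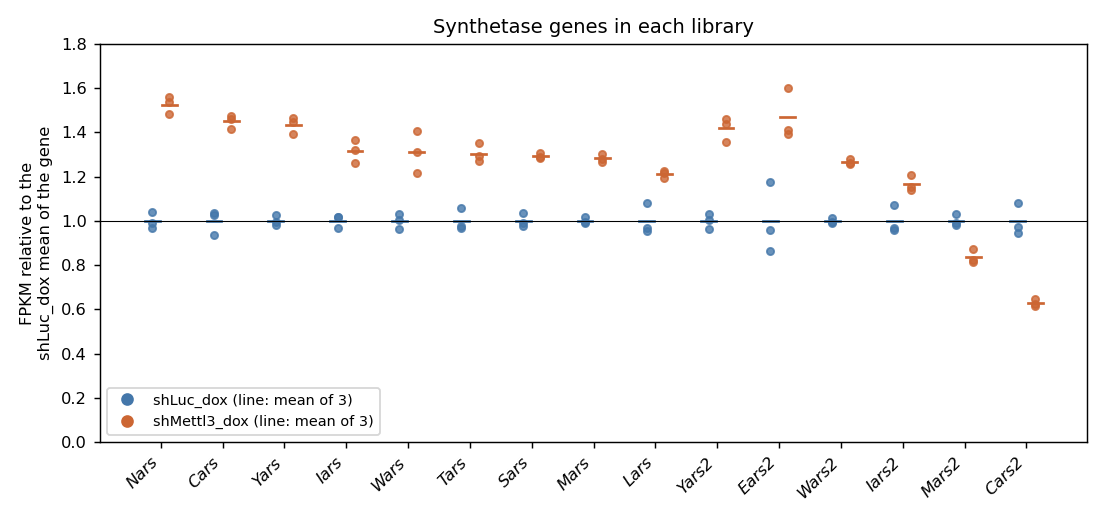
FPKM of 15 synthetase genes in each library, divided by the mean of the 3 shLuc_dox libraries of that gene; points are libraries and short lines are group means. The shMettl3_dox means of Nars, Cars and Yars lie highest among the cytosolic genes, and all shMettl3_dox points of Mars2 and Cars2 lie below the control points.

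Smaller rises passed in 5 cytosolic genes. Lars, the leucine enzyme, read 52.3, 51.5 and 58.3 against 66.2, 65.7 and 64.5 FPKM, a log2 change of 0.28 (limma adjusted p = 0.0106). Farsb, a subunit of the phenylalanine enzyme, read 43.7, 47.0 and 43.0 against 51.2, 50.2 and 56.1 FPKM (log2 change 0.23, limma adjusted p = 0.0257). Neither gene had overlapping groups, though the Farsb call was lost when shLuc_dox replicate 1, shLuc_dox replicate 3 or shMettl3_dox replicate 1 was left out (adjusted p = 0.0852, 0.0821 and 0.0579). Aars, the alanine enzyme, read 21.8, 20.8 and 21.7 against 25.1, 24.2 and 24.9 FPKM (log2 change 0.20, limma adjusted p = 0.0120); without shLuc_dox replicate 2 or shMettl3_dox replicate 1 its adjusted p was 0.0516 and 0.05003, just over the threshold. Rars, the arginine enzyme, had a log2 change of 0.22 (limma adjusted p = 0.0343), and its adjusted p was 0.0930 and 0.114 without shLuc_dox replicates 1 and 2 and 0.0846 and 0.0502 without shMettl3_dox replicates 1 and 3. Kars, the lysine enzyme of both compartments, changed least of the genes called, by 0.13 (limma adjusted p = 0.0493). Leaving out any library other than shLuc_dox replicate 3 ended the Kars call, with adjusted p of 0.0533 to 0.160. It was not called by edgeR (0.0561) or DESeq2 (0.0849) on recovered reads, nor with TMM (0.0772) or quantile scaling (0.155), and it was kept in 2 of 16 alternatives.

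The 7 cytosolic genes that did not pass included the most abundant ones. Gars, the glycine enzyme of both compartments, read 79.0, 81.6 and 89.3 against 86.9, 86.7 and 101 FPKM (log2 change 0.14, limma adjusted p = 0.234), so the groups overlapped. Hars, the histidine enzyme, read 83.6, 84.1 and 81.5 against 90.8, 90.5 and 88.8 FPKM (log2 change 0.11, limma adjusted p = 0.0510), and Dars, the aspartate enzyme, had a log2 change of 0.09 (limma adjusted p = 0.126). The groups of Hars and Dars did not overlap although neither passed; Hars passed without shMettl3_dox replicate 3 (adjusted p = 0.0347). Farsa, the partner subunit of Farsb, had a log2 change of 0.11 (limma adjusted p = 0.245), Eprs one of 0.07 (0.460) and Vars, the valine enzyme, one of 0.02 (0.791). Qars, the glutamine enzyme, was the single cytosolic gene with a negative value, at 41.2, 39.4 and 41.2 against 37.8, 37.8 and 35.4 FPKM (log2 change -0.13, limma adjusted p = 0.0661). All 3 knockdown libraries of Qars lay below the control libraries. With 0 cytosolic genes called lower by limma, 1 (Qars) had an unadjusted p under 0.05, and both edgeR and DESeq2 on recovered reads called this 1 gene lower (adjusted p = 0.0388 and 0.0222), where they called 16.3% and 16.8% of all genes lower. Over its alternatives that called it, which also included 3 other scalings of the libraries, the Qars adjusted p lay between 0.0212 and 0.0432.

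Of the 17 mitochondrial synthetase genes, 4 were higher in shMettl3_dox, 2 were lower and 11 did not pass, 23.5% and 11.8% of the group beside the 14.6% and 13.5% of all tested genes. Their median log2 change was 0.17, and 12 of the 17 lay above 0. The groups did not overlap in 6 genes that were higher and 3 that were lower, against 23.6% and 21.5% of all tested genes, so the lower count is not above that share. Among the 9120 tested genes within the range of levels of the mitochondrial enzymes, 16.2% were called higher and 14.7% lower. The mitochondrial genes were lower in level and rested on 186 to 10494 recovered reads per library, against 1242 to 12750 for the cytosolic genes, and the median standard error of their log2 change was 0.0797 against 0.0469. The share of genes called therefore cannot be compared between the compartments at equal precision, and the difference between their counts was not tested. Without single libraries the number called higher ranged from 1 (without shLuc_dox replicate 1 or shMettl3_dox replicate 1) to 5 and was 2 without shLuc_dox replicate 3 or shMettl3_dox replicate 2. The number called lower was 1 in every such fit except the one without shMettl3_dox replicate 2, where it was 2. There the genes were Cars2 and Lars2 (limma adjusted p = 0.0317 for Lars2), while Mars2 was lost (0.105).

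Yars2 (ENSMUSG00000022792, chromosome 16, 16302965 to 16309640, plus strand), the mitochondrial tyrosine enzyme, read 9.93, 9.68 and 9.29 FPKM in shLuc_dox and 14.1, 13.9 and 13.1 in shMettl3_dox. Its groups were well apart, with a ratio of means of 1.42 and a log2 change of 0.46 (limma adjusted p = 0.00109, SE 0.0489). Ears2, the glutamate enzyme and the lowest of all 37 genes in shLuc_dox, read 2.38, 2.91 and 2.15 against 3.49, 3.97 and 3.46 FPKM. Its ratio of means of 1.47 was above that of Yars2, and its log2 change was 0.42 (limma adjusted p = 0.0225). Wars2, the tryptophan enzyme, read 2.91, 2.90 and 2.96 against 3.70, 3.74 and 3.68 FPKM, with very small spread in both groups (log2 change 0.26, limma adjusted p = 0.0185). Iars2, the isoleucine enzyme, read 18.4, 20.5 and 18.6 against 22.1, 21.8 and 23.2 FPKM (log2 change 0.21, limma adjusted p = 0.0267). All 4 genes had groups that did not overlap, yet only the Yars2 call held in each fit that left out a library. Ears2 did not pass when shLuc_dox replicates 1 and 3 were left out in turn (adjusted p = 0.0717 and 0.0649), nor when shMettl3_dox replicates 1 and 2 were (0.0559 and 0.0694). Wars2 did not pass with either of shLuc_dox replicates 1 and 2 left out (0.0579 and 0.0606), nor with either of shMettl3_dox replicates 1 and 2 (0.0609 and 0.0562). Iars2 missed it without any library other than shLuc_dox replicate 2, at 0.0511 to 0.0906.

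Cars2 (ENSMUSG00000056228, chromosome 8, 11513977 to 11550783, minus strand), the mitochondrial cysteine enzyme, which is also known as a source of cysteine persulfides, had the largest fall of the family. It read 6.20, 6.88 and 6.04 FPKM in shLuc_dox and 4.11, 3.98 and 3.93 in shMettl3_dox. The knockdown libraries lay close together and well below the controls, at 4.01 ± 0.0938 against 6.37 ± 0.444 FPKM (SD, n = 3 each). Their ratio was 0.629. The log2 change was -0.56 (SE 0.0626, limma adjusted p = 0.00139), and 3.93% of the tested genes had a change as low or lower. Mars2, the mitochondrial methionine enzyme, read 4.26, 4.09 and 4.05 against 3.61, 3.41 and 3.36 FPKM (log2 change -0.20, limma adjusted p = 0.0440). The Mars2 groups did not overlap, but leaving out any 1 of the 6 libraries ended the call, with adjusted p of 0.0758 to 0.130. The authors' deposited table of lower genes held these 2 synthetase genes and no other, Cars2 with a log2 fold change of -0.66 (adjusted p = 2.40e-10) and Mars2 with one of -0.25 (adjusted p = 0.0211); the test behind that table is not named in its header.

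Among the 11 mitochondrial genes that did not pass, Vars2 read 6.996, 7.02 and 6.79 against 8.69, 8.91 and 7.12 FPKM (log2 change 0.21, limma adjusted p = 0.0934). Rars2 read 10.2, 9.74 and 9.69 against 11.6, 10.4 and 11.6 FPKM (log2 change 0.17, limma adjusted p = 0.0623). In both genes the groups were apart but 1 knockdown library, replicate 3 for Vars2 and replicate 2 for Rars2, lay close to the controls; without it the adjusted p was 0.00715 for Vars2 and 0.0356 for Rars2. Nars2, the asparagine enzyme, read 3.29, 2.88 and 2.41 against 2.33, 2.34 and 2.11 FPKM (log2 change -0.24, limma adjusted p = 0.132), with all knockdown values under the control values. edgeR and DESeq2 on recovered reads called Vars2 higher (adjusted p = 0.0427 and 0.0491) and Nars2 lower (0.0354 and 0.0290), where they called 16.9% and 15.9% of all genes higher. Fars2 had a log2 change of 0.29 (limma adjusted p = 0.120) that passed without shLuc_dox replicate 2 (0.0462), and Tars2 one of 0.11 (0.330) that passed without shMettl3_dox replicate 3 (0.0344). Aars2 (0.22), Sars2 (0.11), Hars2 (0.08) and Pars2 (-0.09) had log2 changes with limma adjusted p of 0.245 to 0.531.

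**Figure D3:**
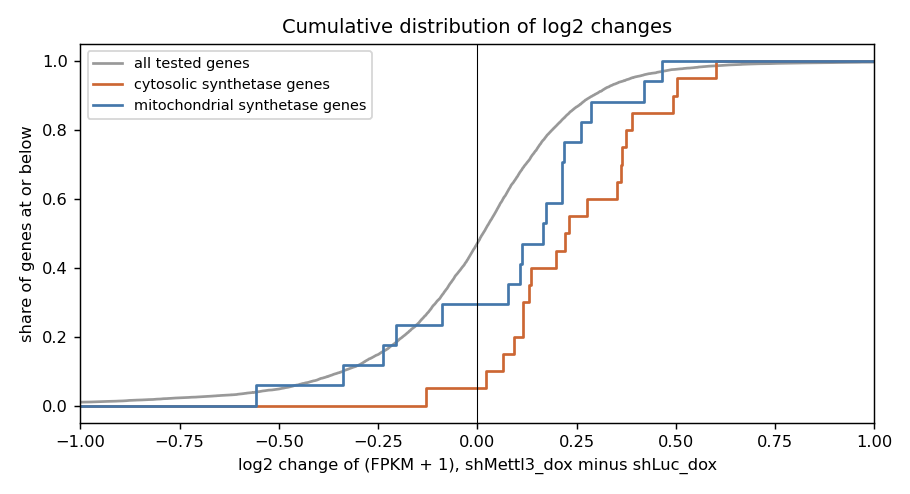
Share of genes (vertical axis) with a log2 change of (FPKM + 1) at or below the value on the horizontal axis, for all 12098 tested genes, the 20 cytosolic and the 17 mitochondrial synthetase genes. The medians lie at 0.01, 0.23 and 0.17, and the mitochondrial curve follows that of all genes at its negative end.

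Lars2, the mitochondrial leucine enzyme, stood apart from the other mitochondrial genes in level and in spread. It read 50.3, 43.9 and 49.1 FPKM in shLuc_dox and 37.5, 49.7 and 28.1 in shMettl3_dox. Knockdown replicate 2 lay within the control range and replicate 3 far below it, so the mean of 38.5 ± 10.8 FPKM was not separated from 47.7 ± 3.39 (log2 change -0.34, SE 0.183, limma adjusted p = 0.216). Without shMettl3_dox replicate 2 the log2 change was -0.54 (adjusted p = 0.0317), and without replicate 3 it was -0.14 (adjusted p = 0.435). The same order of the knockdown libraries was seen in 2 abundant non-coding genes, chosen after their values were seen. Gm26917, a long non-coding RNA, read 95.5, 84.9 and 81.7 against 65.7, 94.2 and 44.9 FPKM, and Gm23935, annotated as a short non-coding RNA, 23619.5, 19877.5 and 19079 against 15954.5, 22500.2 and 7532 FPKM. In all 3 genes the shMettl3_dox order was replicate 2, then 1, then 3, while Lars, the cytosolic leucine gene, was flat over those libraries at 66.2, 65.7 and 64.5 FPKM. Among other abundant genes looked at, the mitochondrial ribosomal RNA genes mt-Rnr1 and mt-Rnr2 did not have this order. In shMettl3_dox replicates 1 to 3, mt-Rnr1 read 130, 154 and 145 FPKM and mt-Rnr2 385, 377 and 467 FPKM. How many of all genes have this order was not counted. The part of reads shared with RNAs such as Gm26917 and Gm23935 in the Lars2 value was not tested.

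**Figure D4:**
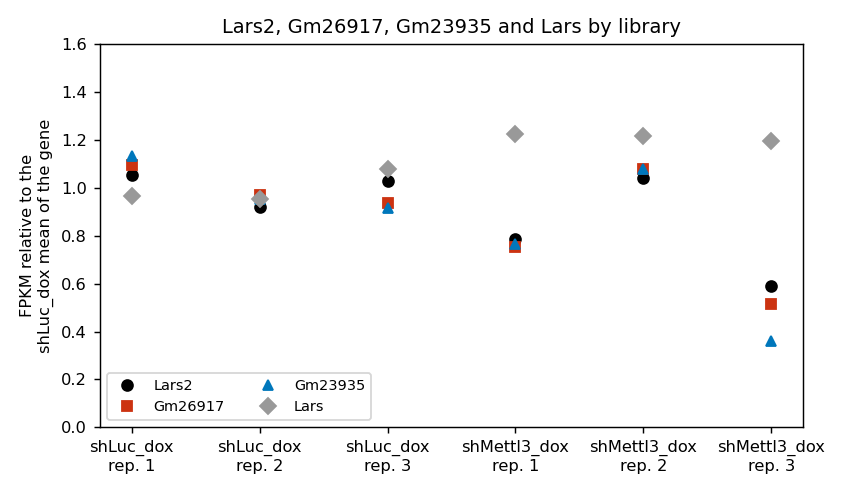
FPKM of Lars2, Gm26917, Gm23935 and Lars in each of the 6 libraries, divided by the gene's mean over the 3 shLuc_dox libraries. Lars2, Gm26917 and Gm23935 are lowest in shMettl3_dox replicate 3 and near 1 in replicate 2, while the 3 shMettl3_dox values of Lars lie together above 1.

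In the control libraries the cytosolic gene of an amino acid was more abundant than its mitochondrial partner in all 18 pairs, with Eprs and Fars2 each entering 2 pairs. The FPKM ratio ran from 1.13 for Lars over Lars2 to 21.5 for Nars over Nars2, with a median of 5.91, and the median was 5.87 in shMettl3_dox. Gars at 83.3 ± 5.35 FPKM and Hars at 83.1 ± 1.40 led the family and overlapped each other; Vars at 78.8 followed, apart from Hars but overlapping Gars, and then Nars at 61.6, apart from both its neighbours. Rars (56.1) and Lars (54.0) overlapped, as did Dars, Sars and Mars, whose means were 37.1 to 37.2 FPKM. Cars, at 12.3 FPKM, was the lowest cytosolic gene and still above every mitochondrial gene other than Lars2 (47.7) and Iars2 (19.2). From Mars2 at 4.13 FPKM down to Ears2 at 2.48, each of the 6 lowest mitochondrial genes overlapped the next.

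The change of the cytosolic gene was greater than that of the mitochondrial partner in 12 of the 18 pairs. The cysteine pair moved furthest apart. Cars over Cars2 was 1.86, 1.84 and 2.10 in the shLuc_dox libraries and 4.37, 4.55 and 4.43 in the shMettl3_dox libraries. Cars rose and Cars2 fell, and the difference of their log2 changes was 1.06. This difference and those that follow are on log2(FPKM + 1), which understates changes of low genes. They are therefore smaller than the log2 shifts of the FPKM ratios. Nars over Nars2 was 18.6, 20.7 and 26.6 against 41.2, 39.1 and 44.9, a difference of 0.84 that came mainly from Nars. Mars over Mars2 was 8.62, 9.01 and 9.29 against 13.2, 14.2 and 13.95, a difference of 0.55. In these 3 pairs the lowest knockdown ratio was above the highest control ratio.

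The leucine and isoleucine ratios also did not overlap, at 1.04 to 1.19 against 1.32 to 2.29 for Lars over Lars2 and 1.97 to 2.31 against 2.42 to 2.50 for Iars over Iars2. In 2 pairs the ratio was lower in every knockdown library. Eprs over Ears2 was 9.56, 7.86 and 11.7 against 6.85, 6.00 and 7.64, and Vars over Vars2 was 11.3, 11.1 and 11.7 against 9.50, 9.31 and 10.5. Both tyrosine genes rose by nearly the same amount, 0.49 for Yars and 0.46 for Yars2 on the log2 scale, and their ratio stayed at 1.42 to 1.504 against 1.46 to 1.51. The remaining 10 pairs, with those of tryptophan, alanine and arginine among them, had ratios that overlapped between the groups. The differences within pairs are descriptions and were not tested.

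**Figure D5:**
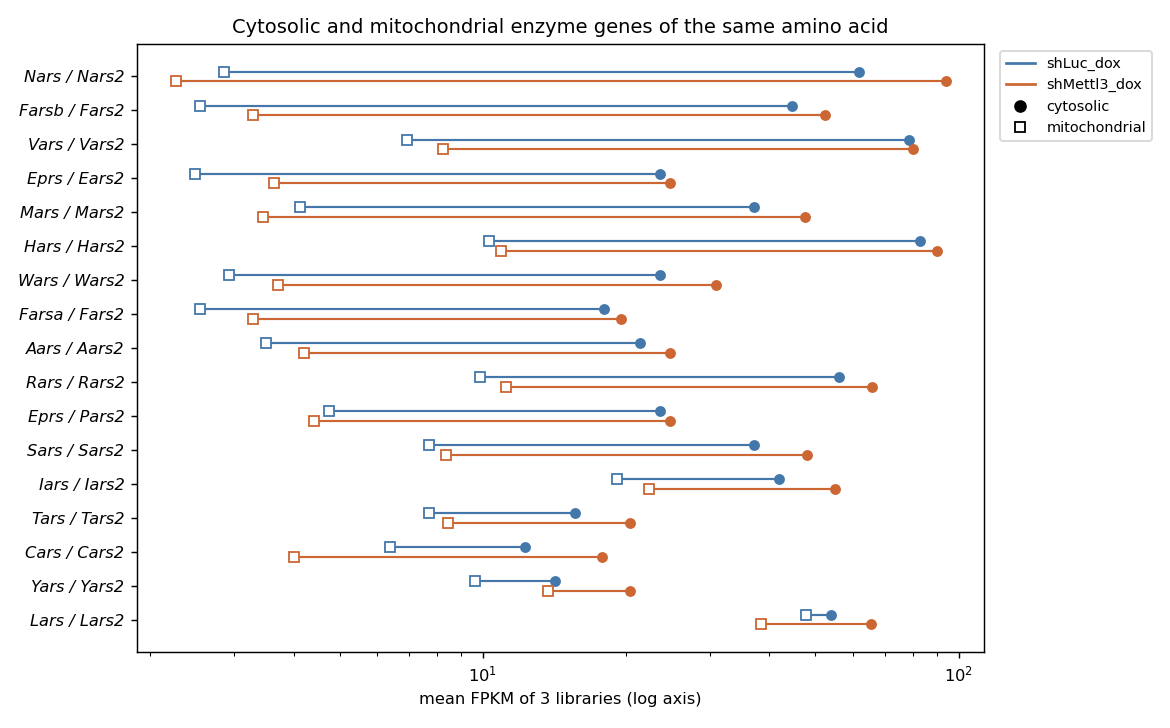
Mean FPKM of the 3 libraries on a log axis for the cytosolic (filled circle) and mitochondrial (open square) gene of 17 pairs, in shLuc_dox and shMettl3_dox; the length of a line is the ratio between the pair. The lines of cysteine, asparagine, methionine and leucine are longer in shMettl3_dox, and the tyrosine line shifts without changing its length.

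Summed over the 20 cytosolic genes, expression was 817, 813 and 843 FPKM in shLuc_dox and 969, 957 and 981 in shMettl3_dox, a ratio of means of 1.18 with no overlap. The 17 mitochondrial genes summed to 162, 156 and 155 FPKM against 161, 173 and 148, where the groups overlapped (ratio 1.02). Lars2 alone supplied 43.9 to 50.3 FPKM of the control sums. Without it the mitochondrial sum was 112, 112 and 106 against 124, 123 and 120 FPKM, a ratio of 1.12, and the groups were apart.

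The counts by class, by complex and by list that follow stand beside the 14.6% of all tested genes called higher and the 13.5% called lower. By structural class, the 2 unrelated folds on which these enzymes are built, 7 of 9 cytosolic class I genes and 6 of 10 cytosolic class II genes were called higher, with median log2 changes of 0.35 and 0.17; Eprs, which joins both classes, was counted in neither. Among the mitochondrial genes all 4 called higher and both called lower were of class I (9 genes, median 0.21). Of the 8 mitochondrial class II genes 0 were called in either direction (median 0.11), with an unadjusted p under 0.05 in 1, Fars2. In this class 1 gene passed without shLuc_dox replicate 2 (Fars2) or shMettl3_dox replicate 3 (Tars2), and edgeR called Nars2 lower and DESeq2 called Fars2 higher and Nars2 lower. The median standard error of the log2 change was 0.0878 in mitochondrial class II and 0.0600 in mitochondrial class I. Their counts therefore cannot be compared at equal precision, and the difference was not tested. Of the 8 enzymes of the multisynthetase complex 5 were higher (Iars, Mars, Lars, Rars and Kars), 0 were lower (1, Qars, by edgeR and by DESeq2, as above) and 3 did not pass (median 0.17). Of the 12 cytosolic genes outside it 8 were higher (median 0.30). The complex count was 3 with any of shLuc_dox replicates 1 and 2 and shMettl3_dox replicates 1 and 3 left out, where Rars and Kars were lost. With Gars and Kars, the genes that serve both compartments, set aside, 12 of 18 cytosolic genes were called higher (median 0.25).

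Of the 3 scaffolds of the complex 2 were higher and 0 lower. Aimp2 read 18.04, 20.8 and 23.0 against 25.8, 27.3 and 29.1 FPKM (log2 change 0.40, limma adjusted p = 0.0173) and Eef1e1, also called Aimp3, 14.6, 12.3 and 11.95 against 15.3, 18.5 and 17.5 FPKM (0.38, 0.0232). Aimp1 had a log2 change of 0.16 and did not pass (limma adjusted p = 0.0906). Groups were apart in all 3, although the Aimp2 call was lost without shLuc_dox replicate 2 (adjusted p = 0.0526) and the Eef1e1 call with replicate 2 or 3 of either group left out (0.0507 to 0.0794). Of the editing factors, which clear mischarged tRNAs, 1 of 3 tested was higher, Dtd1, a D-aminoacyl-tRNA deacylase (log2 change 0.26, limma adjusted p = 0.0319). The Dtd1 call was lost without any library other than shMettl3_dox replicate 3 (0.0583 to 0.101).

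Of 7 genes of cytosolic translation elongation, 2 were higher and 0 lower (median log2 change 0.16), beside 14.6% and 13.5% of all tested genes. Eef1g, a subunit of the exchange factor of eEF1A, read 354, 358 and 361 against 420.0, 429 and 413 FPKM (log2 change 0.23, limma adjusted p = 0.00626), with the groups far apart. Eif5a, which relieves stalled ribosomes, had a log2 change of 0.17 (limma adjusted p = 0.0476). Its call was lost without any library other than shMettl3_dox replicate 3 (0.0937 to 0.159). Those fits left 1 gene of 7 called, near the share of all tested genes. On recovered reads edgeR called 3 of the 7 higher, beside 16.9% of all tested genes, and DESeq2 4, beside 15.9%. Eif5a was among them in both (adjusted p = 0.0187 and 0.00655). Of 8 genes of tRNA synthesis, maturation and export, 4 were higher and 0 lower (median 0.20). Nsun2, a tRNA cytosine methyltransferase, had a log2 change of 0.34 (limma adjusted p = 0.00274), Trnt1, which adds the CCA end, one of 0.33 (0.0130), Elac2, which trims the 3′ end, one of 0.33 (0.0153) and Rpp30, a subunit of RNase P, one of 0.26 (0.0474). Nsun2 kept its call in each fit that left out a library. Trnt1 lost it without shLuc_dox replicate 1 (0.0507), Elac2 without shLuc_dox replicate 1 or 2 (0.0546 and 0.0562) and Rpp30 without any library other than shMettl3_dox replicate 2 (0.0783 to 0.138), which left 1 gene called in the fit lacking shLuc_dox replicate 1 and 2 in the fit lacking shLuc_dox replicate 2.

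In the lists of scaffolds, editing, elongation, tRNA synthesis and mitochondrial partner genes, 0 genes had an unadjusted limma p under 0.05 for a lower level, and edgeR and DESeq2 called 0 lower. Partners of the mitochondrial enzymes gave 3 higher and 0 lower of 7 (median log2 change 0.14). Gatc, a subunit of the amidotransferase that makes mitochondrial glutaminyl-tRNA, read 18.9, 17.3 and 18.2 against 23.4, 25.3 and 21.9 FPKM (log2 change 0.36, limma adjusted p = 0.00691). Mtfmt, which formylates the initiator methionyl-tRNA, had a log2 change of 0.22 (limma adjusted p = 0.0430) and Trmu, which thiolates mitochondrial tRNAs, one of 0.40 (0.0482). Gatc kept its call in each fit that left out a library, but Mtfmt and Trmu lost theirs in each except the one without shMettl3_dox replicate 3 (0.0594 to 0.140), leaving 1 gene called. Mtfmt was also not called by edgeR (adjusted p = 0.0574) or DESeq2 (0.0921). Of 9 mitochondrial translation factors 3 were higher and 1 lower (median 0.10), beside 14.6% and 13.5% of all tested genes; the lower count, 11.1%, is near that share. The recycling factor Mrrf had a log2 change of 0.41 (limma adjusted p = 0.00926), the elongation factors Gfm1 and Tufm 0.21 (0.0172) and 0.13 (0.0354), and the release factor Mtrf1 -0.35 (0.0479). The Gfm1 call was lost with any of shLuc_dox replicates 1 and 3 and shMettl3_dox replicate 1 left out (0.0536 to 0.0634). Tufm lost its call without any library other than shMettl3_dox replicate 3 (0.0786 to 0.109) and by edgeR (0.0660) and DESeq2 (0.119), and Mtrf1 lost its call without any other than shLuc_dox replicate 2 (0.0661 to 0.144).

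Of the 10 genes of the amino acid response, 4 were higher, 1 lower and 5 did not pass, with a median log2 change of 0.07. Of all tested genes 14.6% were called higher and 13.5% lower, so the 1 lower gene is near that share. Atf4, its transcription factor, read 75.1, 79.5 and 73.2 against 102, 104 and 98.6 FPKM (log2 change 0.41, limma adjusted p = 0.00131). Asns, the asparagine synthetase that supplies the substrate of Nars, read 29.5, 26.6 and 30.6 against 45.2, 44.1 and 50.6 FPKM (0.67, 0.00115). Chac1, a glutathione-degrading enzyme, read 4.40, 4.65 and 5.12 against 9.30, 12.2 and 9.09 FPKM (0.96, 0.00154). In all 3 the knockdown libraries lay above the controls. Sesn2, a leucine sensor upstream of mTORC1 that p53 also induces, moved the other way, at 50.4, 55.2 and 50.0 against 40.0, 37.8 and 35.4 FPKM (-0.45, 0.00262). Trib3, named after its values were seen because it completes the count, had a log2 change of 0.37 (limma adjusted p = 0.0261) and lost its call with any of shLuc_dox replicates 1 and 3 and shMettl3_dox replicates 1 and 2 left out (0.0514 to 0.0846). The 5 that did not pass had log2 changes of -0.22 (Ddit3), -0.10 (Eif2ak3), -0.07 (Cebpb), 0.04 (Eif2ak4) and 0.11 (Ppp1r15a). Their limma adjusted p was 0.129 to 0.753.

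Several synthetase genes share sequence or a start region with a neighbour, and the sources used here do not say if reads were counted by strand, so those of overlapping exons cannot be assigned with certainty. Exons of Rab3gap2 on the other strand overlapped 2034 exonic bases, 22.9%, of Iars2; Rab3gap2 had a log2 change of -0.24 (limma adjusted p = 0.0125, and 0.0526 without shLuc_dox replicate 2), opposite to that of Iars2. Exons of Naxd overlapped 422 bases, 5.83%, of Cars2, and Naxd had a log2 change of 0.10 (limma adjusted p = 0.381). Ddit3 overlapped 68 bases, 1.99%, of Mars and had a log2 change of -0.22 (0.129). Hars and Hars2, which lie head to head, share 195 exonic bases. On the same strand, Exosc6 overlapped 1326 exonic bases, 14.3%, of Aars, and Exosc6 had a mean of 0 FPKM. How reads of exons shared on the same strand were counted is not stated, so this 0 does not show that Exosc6 was not expressed. By its GENCODE M21 start, which differs from the RefSeq start used for the promoter windows, Yars starts 33 bases from S100pbp on the other strand. These neighbours moved in opposite directions: S100pbp had a log2 change of -0.27 (limma adjusted p = 0.00395).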

How the data were processed

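RNA-seq of 6 libraries was analysed from deposited tables. FPKM were computed by the authors from reads, gene length and library size. The second table held normalized read counts, a signal deposited by the authors for 1960 genes they listed as lower, with the authors' log2 fold changes and p-values; its shMettl3 columns carry a 2 after shMettl3. The table of higher genes is not used here. Tools named without parameters, per the submitters' processing notes, are DESeq2, featureCounts 1.5.3, STAR and fastp, with the build mm10.

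The main test was limma 3.58.1 (R 4.3.3; eBayes with trend) on log2(FPKM + 1) for the 12098 genes averaging 1 FPKM or more, two-sided, at a Benjamini-Hochberg adjusted p of 0.05. Log2 changes are on this scale, which understates changes of low genes. Whole reads were recovered from FPKM and GENCODE M21 exon lengths, within 0.001 read for 96.7% of genes and with another length for 872, and were tested with edgeR 4.0.16 and DESeq2 1.42.0 as alternatives, with other pseudocounts, filters, scalings, a replicate block and each library left out. Protein-coding scaling and leaving out Lars2 were chosen after seeing the data. Recovered depth was 18188380, 20132540 and 17001640 reads for the shLuc_dox replicates and 25464040, 17652952 and 20402780 for the shMettl3_dox replicates, which limits precision for genes of few reads. Replicates differed beyond sampling noise, their chi-square divided by its degrees of freedom being 3.53 to 14.9, so none was merged. The pairs that held shMettl3_dox replicate 3 gave 13.0 and 14.9, and the other pairs 3.53 to 4.87. Scripts were tested on simulated data. Coordinates are GENCODE M21 (GRCm38, mm10), 1-based; figures used matplotlib 3.10.9.

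The genes and lists were chosen with earlier results of these data known. The rule for named genes gave per-library values for up to 16 synthetase genes with the smallest adjusted p and their partners, and up to 4 genes with the smallest p of each related list. The other genes of the amino acid response list were named to complete its count. Markers, neighbours and overlapping genes were named to describe the samples and the members. A gene that is included in the counts is not reported here by name.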

Additional observations from a re-analysis of the deposited data

How the results depend on the processing

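Of 19 synthetase genes called, 11 kept the call in every setting run: Nars, Cars, Yars, Iars, Wars, Tars, Sars, Mars, Lars, Yars2 and Cars2. The value of Vars changed sign, without a call, under protein-coding scaling (-0.0195), under quantile normalization (-0.00178) and without shMettl3_dox replicate 1 or 2 (range over the libraries left out -0.00494 to 0.0704). The number of cytosolic genes called lower became 1 with TMM, protein-coding scaling, quantile normalization, edgeR and DESeq2, in each case Qars. The number of mitochondrial genes called higher fell to 1 with no filter on low values and to 2 with a minimum of 5 FPKM, which tests fewer genes. The number called lower fell to 1 with no filter, a minimum of 5 FPKM, quantile normalization and the replicate block. Leaving out each library gave 9 to 12 cytosolic genes higher, 0 lower, 1 to 5 mitochondrial genes higher, 1 to 2 lower, median log2 changes of 0.19 to 0.26 and 0.12 to 0.17, and over all genes 1013 to 1854 higher and 1060 to 1646 lower. Protein-coding scaling split all genes into 1264 higher and 1922 lower, against 1763 and 1633. Same-numbered replicates did not pair (correlations 0.03, -0.01 and 0.06); the replicate block ended the calls of Farsb (adjusted p = 0.0528), Kars (0.0736) and Mars2 (0.0692). The causes were not tested. At 186 to 554 reads per library, small changes of Ears2 and Wars2 are at the limit of this depth.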
